A study of Homo sapiens with 6 samples.

Results

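The guanylate-binding proteins (GBPs) and the apolipoprotein L (APOL) family were examined in SW480 cells through 9 genes, GBP1 to GBP5 and APOL1, APOL2, APOL3 and APOL6. They were measured by 19 of 54613 probe sets, and all 9 had at least 1 probe set whose annotation names a single gene, out of 19775 such genes. The genes were chosen by family, and every probe set annotated to exactly 1 of them was kept, 11 for GBPs and 8 for APOLs. SW480 is an established human colorectal adenocarcinoma line. Of the 6 arrays, 3 were labelled as CPEB3 overexpression by transfection and 3 as negative control (NC). CPEB3 binds messenger RNAs and regulates their translation. Both groups were kept in the same serum-containing medium with penicillin and streptomycin, and total RNA was extracted and hybridised to Affymetrix HG-U133 Plus 2.0 arrays. The sources used here do not give the vector, the content of the control or whether the cells were a clone or a pool. The titles call the replicates biological without naming separate cultures. The p-values thus rest on the spread among these 6 arrays, which may be technical.

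GBPs are large GTPases of the dynamin superfamily that cells make in response to interferons. They assemble on membranes of intracellular pathogens and on the vacuoles that enclose them, and help to start inflammasome signalling through caspase-4. GBP1, GBP2 and GBP5 end in a motif to which a lipid is attached, which lets them bind membranes. APOL1 is the serum factor that kills trypanosomes, and several relatives act inside the cell on membranes. APOL genes too are induced by interferons and inflammatory cytokines in many human cell types.

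CPEB3 mRNA was read by 4 probe sets, and their values did not follow the labels. It differed by -1.44 at the probe set 205773_at and by 0.05 at 243651_at on the log2 scale (arrays labelled CPEB3 minus arrays labelled NC), with limma adjusted p-values of 7.80e-05 and 0.695. The others, 239765_at and 1555250_a_at, differed by -0.35 and -0.25, both past the threshold. While 243651_at lay between the 70.2 and 72.2 percentile of the arrays, 205773_at and these others lay between the 11.3 and 51.6 percentile. Thus 3 of the 4 were lower where overexpression is labelled. Whether these probe sets can read the transfected CPEB3 sequence is unknown, since the vector is not given. Every direction below therefore rests on the labels. Arrays of the same group correlated with r of 0.997 to 0.998 over all probe sets, and arrays of different groups with r of 0.991 to 0.992. All 10 colon epithelial markers were measured, none was lower past the threshold and 4 lay below the median level of genes. EPCAM, an epithelial adhesion protein, lay between 11.07 and 11.17 in arrays labelled CPEB3 and between 11.04 and 11.17 in arrays labelled NC. KRT18 and KRT20, both keratins, were higher by 0.26 and 0.87. Of 7 fibroblast markers 1, DCN, was higher and 0 lower, where 10.9% of all genes were higher and 12.5% lower. The DCN call was lost when its probe sets were averaged (0.09) or the most variable one was taken (0.21), and its sign turned without probe sets whose probes match several transcripts (-0.10). The fibroblast markers' summed intensity was 159 to 169 in arrays labelled CPEB3, against 142 to 157 in arrays labelled NC. Of the 7, 6 lay below the median level of genes. The brightest, COL1A1, differed by 0.16 and did not pass (limma adjusted p = 0.195). In a bulk sample fewer cells of a type and less RNA per cell cannot be told apart.

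Of the 19 probe sets, 3 were lower in the arrays labelled CPEB3 at a Benjamini-Hochberg adjusted p under 0.05, 0 were higher and 16 did not pass (limma fitted over all 54613 probe sets). Among all probe sets, 7.86% were lower at that threshold. The members' median log2 difference was -0.12, against 0.02 for all probe sets. The 3 that passed were the GBP3 probe set, 1 of 2 APOL2 probe sets and 1 of 2 GBP2 probe sets. An unadjusted limma p under 0.05 was reached by 7 of the 19. The share of all probe sets that reached it was not computed, so this count cannot be called high or low. The values of the groups did not overlap in 8 of the 19, all lower in the arrays labelled CPEB3, where 14.9% of all probe sets were lower without overlap. Centring on the 18 hybridization spike-in probe sets shifted the median of all genes up by 0.18, and the members' median turned to 0.06. With this centring 2 members were lower, GBP3 and the APOL2 probe set 221653_x_at, and 3.5% of all probe sets were lower.

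**Figure D1:**
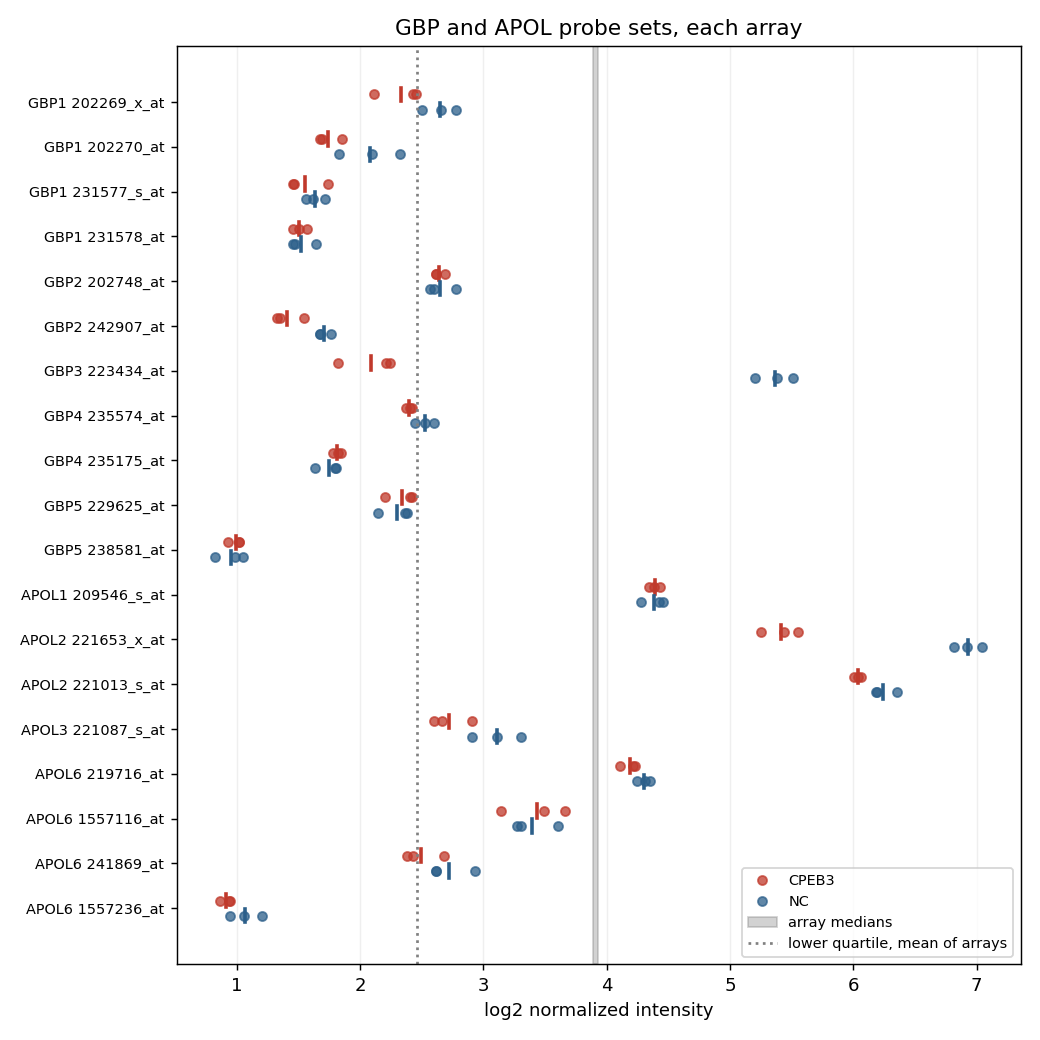
Log2 normalized intensity (horizontal axis) of all 19 GBP and APOL probe sets on each array, arrays labelled CPEB3 in red above arrays labelled NC in blue, with a bar at each mean of 3. GBP3 and the APOL2 probe set 221653_x_at show the widest gaps between the groups, and 14 of the 19 lie below the array medians, drawn as a grey band, on all 6 arrays.

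GBP3, a family member reported to restrict influenza virus by acting on its polymerase, gave the largest difference among the members. Its probe set 223434_at read 2.21, 1.82 and 2.24 on the log2 scale in the arrays labelled CPEB3, against 5.51, 5.20 and 5.38 in the arrays labelled NC. All 3 arrays labelled CPEB3 lay far below all 3 labelled NC. The mean was 2.09 ± 0.23 in arrays labelled CPEB3 and 5.36 ± 0.15 in arrays labelled NC (SD, n = 3 each), a log2 difference of -3.27 (SE 0.12, 95% interval -3.55 to -3.00). This is 9.68-fold lower, with a limma adjusted p of 2.26e-07. Of all probe sets, 21 had a larger fall. Its rank within an array ran from the 14.5 percentile, on an array labelled CPEB3, to the 73.4 percentile, on one labelled NC. With 16 added to every intensity before log2, which compresses dim values, it was 2.82-fold lower (limma adjusted p = 4.26e-05). It was lower past the threshold in all 16 alternatives that kept it, with differences of -3.36 to -1.50, and was left out when dim probe sets were removed.

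Promoter windows are shown for GBP1, GBP3 and GBP4, the 3 of the 9 members matched in the RefSeq promoter table (GRCh38.p14), and that of GBP3 in full because this gene carries the largest difference. The table gives 250 bases before to 50 after each gene's start. The search was for the core of the interferon-stimulated response element (ISRE), GAAA followed after 2 free bases by GAAA, and for the core of the gamma-activated site (GAS), TTCNNNGAA, on both strands. An ISRE core was found in 3.57% of 34943 windows of this length, and a GAS core in 7.66%. The GBP3 window, chr1:89022817-89023116 on the minus strand, is given 5′ to 3′ with both cores in capitals.

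GBP3: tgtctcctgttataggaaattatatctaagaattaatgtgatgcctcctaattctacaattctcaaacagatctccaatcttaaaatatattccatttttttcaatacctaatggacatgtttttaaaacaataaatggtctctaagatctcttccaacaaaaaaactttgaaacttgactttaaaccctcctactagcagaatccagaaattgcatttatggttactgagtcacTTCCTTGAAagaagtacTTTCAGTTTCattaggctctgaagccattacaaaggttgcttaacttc

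All 3 windows hold 1 ISRE core, read on the strand opposite to the gene, and GBP3 also holds 1 GAS core. The ISRE cores of the windows are given next with 15 bases on each side, the core in capitals, at chr1:89022840-89022879 for GBP3, chr1:89065311-89065350 for GBP1 and chr1:89198922-89198961 for GBP4, all on the minus strand.

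GBP3: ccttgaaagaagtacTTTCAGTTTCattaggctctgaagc
GBP1: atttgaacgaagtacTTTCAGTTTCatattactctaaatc
GBP4: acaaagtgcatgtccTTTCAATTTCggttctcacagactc

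The core of GBP3 spans bases 3 to 12 after the annotated start, that of GBP1 lies at -127 to -118 and that of GBP4 spans -4 to 6. GBP1 and GBP3 share an unbroken run of 19 bases around it, whereas the longest run that either shares with GBP4 is 9 bases. The GAS core of GBP3 lies at -15 to -7 and does not overlap the ISRE core. A match describes the letters of the window and is not a measured binding site.

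GBP1, which coats cytosolic bacteria in human cells, was read by 4 probe sets, all with a negative difference and none past the threshold. Probe set 202269_x_at read 2.43, 2.45 and 2.11 in the arrays labelled CPEB3 and 2.78, 2.50 and 2.66 in the arrays labelled NC. Its groups did not overlap, with a log2 difference of -0.31 (95% interval -0.55 to -0.08, limma adjusted p = 0.083). At 202270_at the values were 1.67, 1.85 and 1.69 in arrays labelled CPEB3, against 1.82, 2.10 and 2.32 in those labelled NC. There the groups overlapped, with a difference of -0.34 and a limma adjusted p of 0.0852, or 0.0205 without NC replicate 1. The other pair, 231577_s_at and 231578_at, differed by -0.08 and -0.02, and by 0.10 and 0.16 with spike-in centring. All 4 were dim, between the 8.64 and 30.1 percentile of the arrays.

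GBP2, another lipid-modified GBP, had a probe set on each side of the threshold. At 242907_at the log2 values were 1.35, 1.33 and 1.55 in the arrays labelled CPEB3, and 1.68, 1.76 and 1.67 in the arrays labelled NC. The groups did not overlap, and the difference was -0.30 (SE 0.08, limma adjusted p = 0.0317), or 1.23-fold lower. This call was lost with spike-in centring (-0.12) and with 16 added to the intensities (-0.05). It was also lost in 5 of the 6 fits that left out an array (limma adjusted p up to 0.118), all but the one without CPEB3 replicate 3. The other probe set, 202748_at, read 2.61, 2.68 and 2.61 in arrays labelled CPEB3 and 2.57, 2.60 and 2.78 in arrays labelled NC. Its groups overlapped, with a difference of -0.01 and a 95% interval from -0.18 to 0.16.

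GBP4 and GBP5 were read by 2 probe sets each, and none of the 4 passed. GBP4 differed by -0.12 at 235574_at, where the groups did not overlap, and by 0.07 at 235175_at, where they did. GBP5, which promotes assembly of the NLRP3 inflammasome, differed by 0.05 at 229625_at (95% interval -0.16 to 0.25) and by 0.04 at 238581_at (95% interval -0.14 to 0.21). The GBP5 values at 238581_at were 0.93, 1.02 and 1.02 in arrays labelled CPEB3 and 0.82, 0.98 and 1.05 in arrays labelled NC. They lay between the 0.78 and 3.06 percentile of the arrays, and no detection calls were used. Outside the 9 genes, GBP6 differed by -0.15 and 0.07 at its 2 probe sets, and the pseudogene GBP1P1 by -0.10, with limma adjusted p-values from 0.398 to 0.692.

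**Figure D2:**
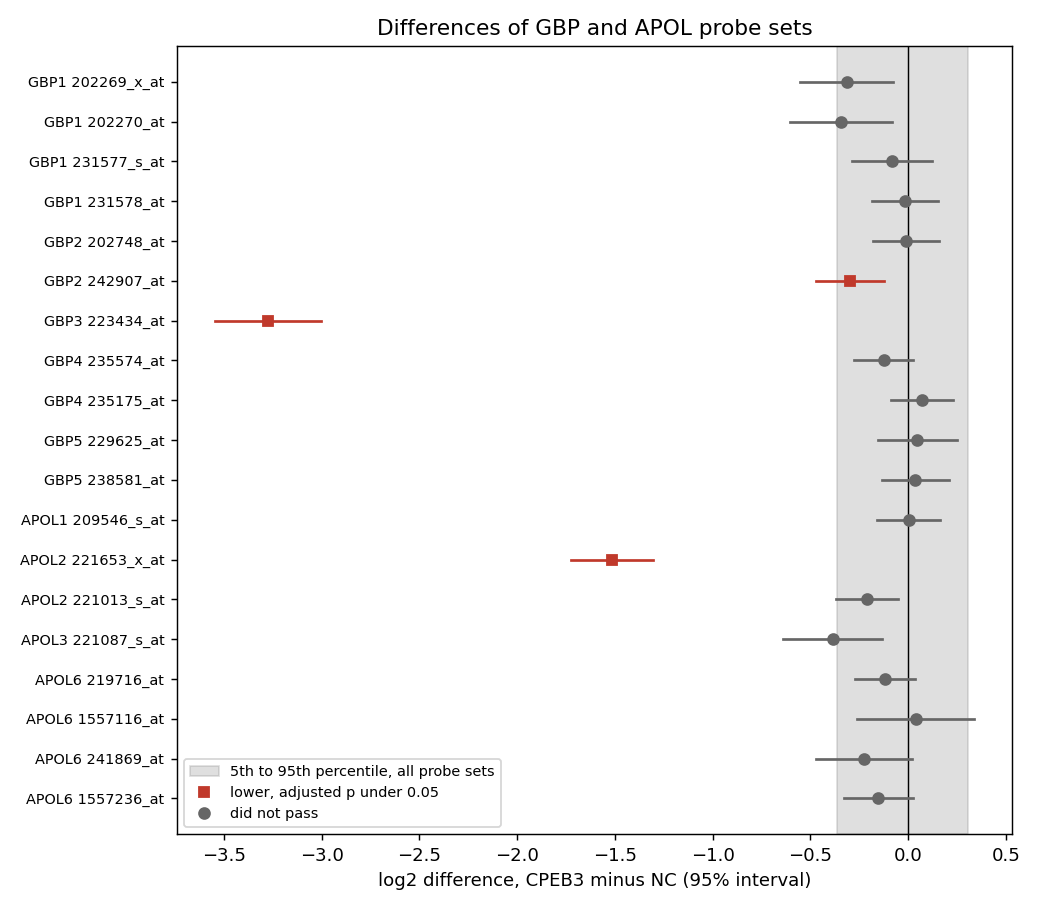
Log2 difference, arrays labelled CPEB3 minus arrays labelled NC, with its 95% interval for each of the 19 probe sets. Red squares passed an adjusted p under 0.05, and the grey band holds the 5th to 95th percentile of all probe sets (-0.36 to 0.31), which only GBP3 at -3.27, APOL2 at -1.51 and APOL3 at -0.39 lie outside.

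The APOL genes lie on chromosome 22, and 1 of their 8 probe sets was lower past the threshold, where 7.86% of all probe sets were. APOL2, an intracellular APOL found at the endoplasmic reticulum, differed between its 2 probe sets. At 221653_x_at the log2 values were 5.25, 5.55 and 5.44 in the arrays labelled CPEB3, against 6.82, 7.05 and 6.92 in the arrays labelled NC. The groups lay well apart, averaging 5.41 ± 0.15 in arrays labelled CPEB3, against 6.93 ± 0.12 in those labelled NC (SD, n = 3 each). The difference was -1.51 (SE 0.09, 95% interval -1.72 to -1.31), or 2.86-fold lower, with a limma adjusted p of 8.10e-06. At 221013_s_at the values were 6.01, 6.06 and 6.04 in arrays labelled CPEB3 and 6.18, 6.35 and 6.20 in arrays labelled NC. The groups did not overlap there either, but the difference was -0.21 (95% interval -0.37 to -0.05) and did not pass (limma adjusted p = 0.0813).

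The distance between the APOL2 probe sets, 221653_x_at minus 221013_s_at on the same array, was -0.76, -0.51 and -0.59 in the arrays labelled CPEB3 and 0.63, 0.69 and 0.73 in the arrays labelled NC. The distance moved down on all 3 arrays labelled CPEB3, so the probe sets changed unequally. Names ending in _x_at or _s_at mark probe sets whose probes can match more than 1 transcript, so neither probe set is certain to read APOL2 alone. Which transcripts or isoforms each one reads was not analysed here. The weak difference of 221013_s_at passed with an intensity trend, with 16 added to the intensities and without dim probe sets (limma adjusted p = 0.0355, 0.0367 and 0.0282), and was -0.03 with spike-in centring. That of 221653_x_at passed in all 16 of its alternatives, between -1.58 and -1.23.

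APOL1, the trypanosome-killing member, had a single probe set, 209546_s_at, which read 4.43, 4.39 and 4.35 in the arrays labelled CPEB3 and 4.42, 4.28 and 4.45 in the arrays labelled NC. The groups overlapped throughout, with a difference of 0.00 and a 95% interval from -0.16 to 0.17 (limma adjusted p = 0.98). It lay between the 56.5 and 59.3 percentile of the arrays. In RefSeq's order along chromosome 22, APOL1 follows APOL2, and before APOL2 comes APOL4, whose 3 probe sets differed by -0.24, 0.01 and 0.03, none past the threshold.

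APOL3, which in human cells dissolves the membranes of cytosolic bacteria, read 2.66, 2.90 and 2.60 at 221087_s_at in the arrays labelled CPEB3, against 2.90, 3.11 and 3.30 in the arrays labelled NC. Its groups touched, since CPEB3 replicate 2 and NC replicate 1 had the same value. The difference was -0.39 (SE 0.11, 95% interval -0.64 to -0.13) at a limma adjusted p of 0.0501. Over its alternatives the adjusted p lay between 0.029 and 0.168, and 7 of 15 passed.

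APOL6, which promotes apoptosis when overexpressed, had 4 probe sets and none passed. The brightest, 219716_at, read 4.11, 4.22 and 4.23 in arrays labelled CPEB3 and 4.35, 4.31 and 4.25 in arrays labelled NC, a difference of -0.12 (95% interval -0.27 to 0.04). Its groups did not overlap, by a narrow margin. The others, 1557116_at, 241869_at and 1557236_at, differed by 0.04, -0.23 and -0.15 with limma adjusted p-values of 0.892, 0.215 and 0.253. Of the relatives outside the 9 genes, APOL5 differed by -0.10 (limma adjusted p = 0.562). APOLD1, an APOL-domain gene of endothelial cells, fell by 0.97 (3.33 in arrays labelled CPEB3 and 4.30 in arrays labelled NC, limma adjusted p = 3.56e-04), or by 0.46 with 16 added to the intensities. Among 8 endothelial markers 1, ESAM, was lower and 0 higher, where 12.5% of all genes were lower and 10.9% higher. ESAM lost its call with spike-in centring (-0.12) and in 4 of the 6 fits that left out an array, those without CPEB3 replicate 1, CPEB3 replicate 3, NC replicate 1 or NC replicate 2 (limma adjusted p up to 0.0928). The endothelial markers' summed intensity was 106 to 108 in arrays labelled CPEB3 and 108 to 111 in arrays labelled NC. The 8 leukocyte markers measured held 0 past the threshold, with sums of 77.8 to 86.7 in arrays labelled CPEB3 and 73.1 to 77.9 in arrays labelled NC. All 8 measured of either list lay below the median level of genes. The part of other cells in the differences of the members was not tested.

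**Figure D3:**
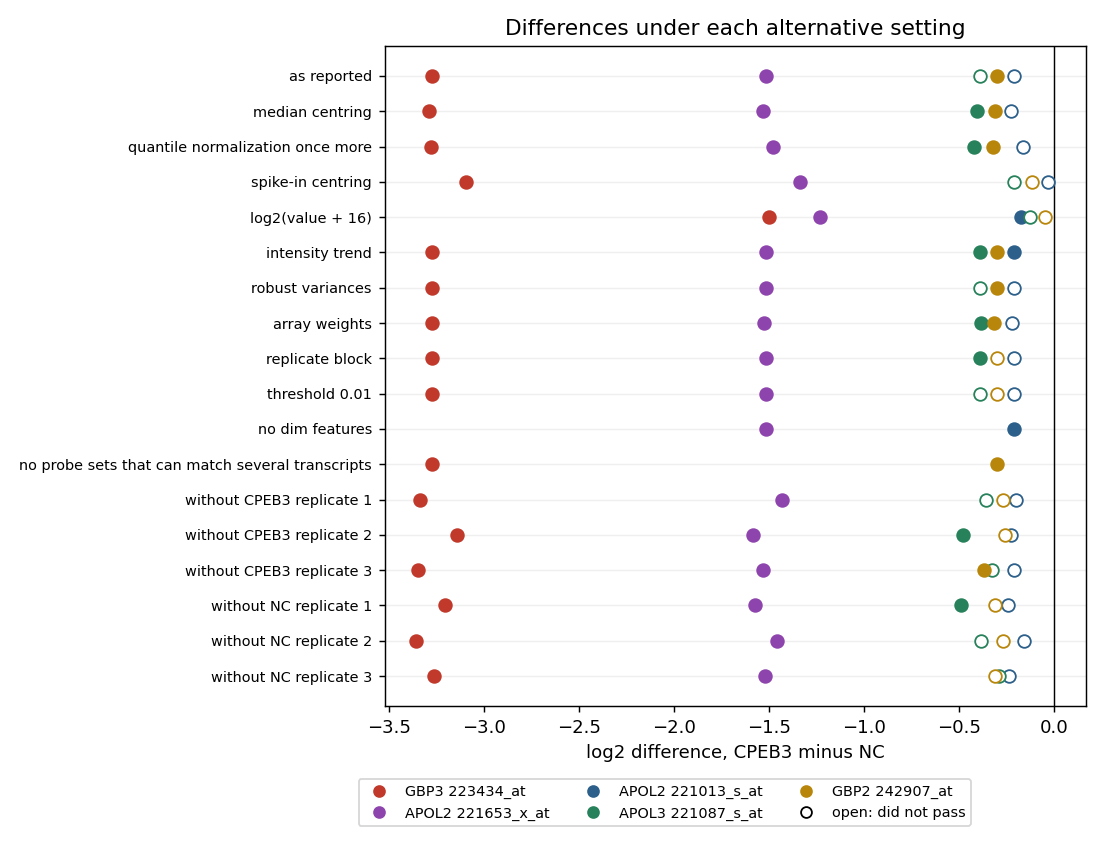
Log2 difference, arrays labelled CPEB3 minus arrays labelled NC (horizontal axis), of 5 probe sets as reported and under each alternative setting, filled where the adjusted p passed and open where it did not. GBP3 and APOL2 221653_x_at passed wherever they were tested, while APOL2 221013_s_at, APOL3 and GBP2 242907_at changed sides of the threshold.

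The pathway that switches these families on runs from interferon receptors through JAK kinases to transcription factors, and it was tested with 1 probe set per gene, the brightest. Lists were chosen with earlier results of these data known. Of 19 measured genes of this route, 9 were lower and 1 higher in the arrays labelled CPEB3, with 2 further listed genes not analysed here. Among all 19775 genes, 12.5% were lower and 10.9% higher. The list's median difference was -0.25, against 0.02 for all genes. With spike-in centring 7 were lower and 1 higher, where 5.25% of all genes were lower and 39.3% higher. The negative regulator USP18, which blocks the type I interferon receptor, fell by 3.34 (limma adjusted p = 3.59e-08). IRF7, a factor that amplifies interferon production, fell by 2.58 (limma adjusted p = 8.52e-08). SOCS1 and SOCS3, inhibitors of JAK signalling, fell by 0.86 and 0.53. When the probe sets of a gene were averaged, SOCS1 differed by -0.25 and SOCS3 by -0.13, and SOCS3 lost its call (limma adjusted p = 0.0904).

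IRF1, a factor that binds ISRE sequences and drives GBP genes, read 5.50, 5.61 and 5.47 in the arrays labelled CPEB3 and 7.03, 7.03 and 6.94 in the arrays labelled NC, a difference of -1.48 (limma adjusted p = 7.32e-07). IRF9, the DNA-binding subunit of the complex that type I and III interferons activate, read 7.07, 7.23 and 7.11 in arrays labelled CPEB3, against 8.33, 8.35 and 8.41 in arrays labelled NC, a difference of -1.23 (limma adjusted p = 2.59e-06). The groups lay apart for both factors, and both kept the call in every alternative run. At the receptors the differences were smaller. IFNGR1 and IFNGR2, the chains of the interferon-gamma receptor, fell by 0.35 and 0.29, and neither passed with spike-in centring (-0.17 and -0.11). IFNGR1 also lost its call without probe sets whose probes match several transcripts (-0.10). IFNLR1, a chain of the type III interferon receptor, fell by 0.69, or by 0.27 when its probe sets were averaged. IFNAR1, a chain of the type I interferon receptor, differed by -0.01 (limma adjusted p = 0.924). Its partner IFNAR2 was higher by 0.25, but this call was lost when its probe sets were averaged (0.01), and its sign turned without probe sets whose probes match several transcripts (-0.04).

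**Figure D4:**
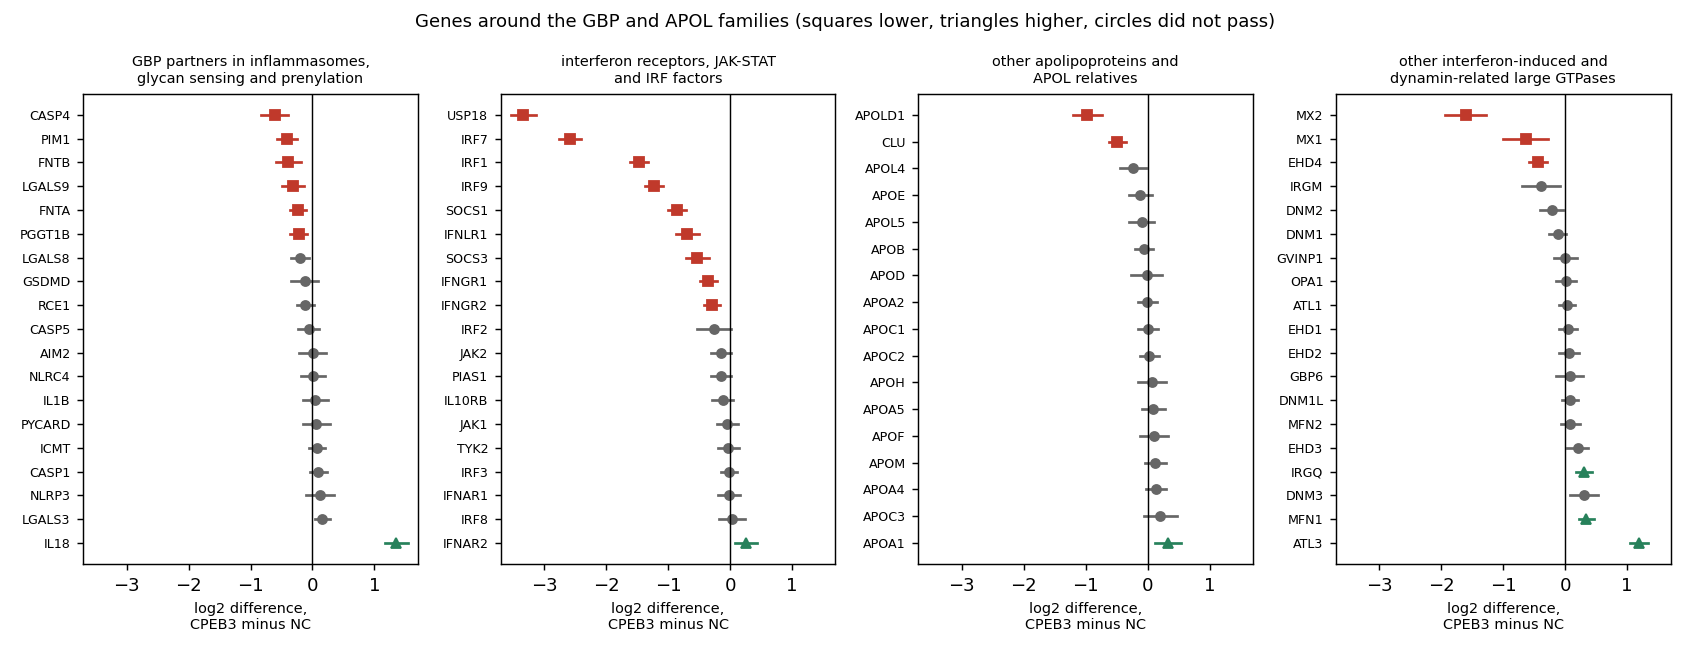
Log2 difference, arrays labelled CPEB3 minus arrays labelled NC, with 95% intervals for the measured genes of 4 lists around the GBP and APOL families, 1 probe set per gene. Red squares were lower and green triangles higher at an adjusted p under 0.05; USP18 at -3.34 and IRF7 at -2.58 lie farthest left, and IL18 at 1.35 farthest right.

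Among 19 other large GTPases related to GBPs or dynamins, 3 were lower and 3 higher, with a median of 0.05, beside shares of 12.5% lower and 10.9% higher among all genes. With spike-in centring 3 were lower and 9 higher, beside 5.25% lower and 39.3% higher among all genes. The lower ones as reported were MX2, MX1 and EHD4, and the higher ones ATL3, MFN1 and IRGQ. MX1 lost its call without CPEB3 replicate 2, CPEB3 replicate 3 or NC replicate 1 (limma adjusted p up to 0.0592), and EHD4 when the most variable probe set was taken (limma adjusted p = 0.163). MX2, an interferon-induced GTPase that blocks retroviruses, read 3.83, 3.43 and 3.85 in the arrays labelled CPEB3 and 5.15, 5.63 and 5.16 in the arrays labelled NC. That is a difference of -1.61 (limma adjusted p = 9.53e-05), or -0.94 with 16 added to the intensities. ATL3, which shapes the endoplasmic reticulum, rose by 1.19, or 0.47 with the mean of its probe sets.

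Of 19 genes that work with GBPs in inflammasomes, glycan sensing and lipid attachment, 6 were lower and 1 higher, with a median of -0.06, and with spike-in centring 1 was lower and 5 higher. Among all genes 12.5% were lower and 10.9% higher as reported, and 5.25% and 39.3% with that centring. CASP4, the caspase that GBPs recruit to bacterial lipopolysaccharide, fell by 0.61 (limma adjusted p = 0.00188), but its difference was -0.16 (limma adjusted p = 0.261) when probe sets whose probes match several transcripts were left out. The farnesyltransferase subunits FNTA and FNTB and the geranylgeranyl transferase subunit PGGT1B, which attach lipids to proteins, fell by 0.23, 0.39 and 0.22. None of these 3 passed with spike-in centring. FNTA also lost its call without CPEB3 replicate 2 or CPEB3 replicate 3 (limma adjusted p up to 0.0801), and when its probe sets were averaged (limma adjusted p = 0.0747) or the most variable one was taken (limma adjusted p = 0.241). PGGT1B lost it in every fit that left out an array (limma adjusted p up to 0.0865) except the one without NC replicate 3, and with repeated quantile normalization (limma adjusted p = 0.0743) or the most variable probe set (limma adjusted p = 0.129). IL18, an inflammasome substrate, rose by 1.35 (limma adjusted p = 6.06e-06). Of 17 other apolipoproteins and APOL relatives, APOLD1 and CLU, 2 in all, were lower and 1, APOA1, was higher, with a median of 0.00. With spike-in centring 2 were lower and 6 higher, so these counts stand beside the same shares of all genes. APOA1 lost its call with 16 added to the intensities (0.10), when its probe sets were averaged (limma adjusted p = 0.0558) and without probe sets whose probes match several transcripts (limma adjusted p = 0.0669). It also lost it without CPEB3 replicate 1, CPEB3 replicate 2, NC replicate 2 or NC replicate 3 (limma adjusted p up to 0.113). CLU fell by 0.49, or by 0.27 when its probe sets were averaged.

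Genes with patterns most like those of the members were ranked by Pearson's r of log2 levels over the 6 arrays, which share 2 groups. For GBP1 (202269_x_at) they were ASAP1-IT2, SCUBE1, VRTN, SPRTN and CIRSR, with r of 0.979 to 0.990. For APOL1 they were MGAT3, LINC02119, LINC02712, TACR1 and FBXO39, with r of 0.967 to 0.982. GBP3 and APOL2 were added to this ranking after their values were seen. The genes most like GBP3 were VEZF1, TSC22D3, ETS1, CEP95 and ZMYM2, each with r of 0.999. Those most like APOL2 (221653_x_at) were ZKSCAN1, TRIM21, CDC42EP3, SLC30A1 and SART3, with r of 0.9986 to 0.9998. The closest of these, ZKSCAN1, differed by -0.10 between the groups and did not pass (limma adjusted p = 0.236). TRIM21, a cytosolic antibody receptor, fell by 2.15 (limma adjusted p = 1.85e-06), and the transcription factor ETS1 fell by 1.52 (limma adjusted p = 7.74e-07).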

How the data were processed

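For each array the authors deposited linear normalized intensities of probe sets, made with RMA per the submitters' processing notes. The sources used here do not give its version or the step from log2 back to linear. RMA equalises the arrays' distributions, so global changes in RNA content go unmeasured. The number of arrays limits the precision.

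Log2 of the 54675 deposited intensities was taken, 62 control probe sets were set aside, and limma 3.58.1 in R 4.3.3 (lmFit, eBayes, group as the only term, two-sided) was fitted to all 54613 others, with Benjamini-Hochberg adjustment over all of them and a threshold of 0.05. A second fit took for each of 19775 genes its brightest single-gene probe set and gave the lists. Genes were named by the platform annotation (41091 probe sets with 1 symbol, 1801 with several, 11721 unnamed here), compared by Entrez ID with RefSeq, with 0 symbols updated. The steps were tested on simulated data.

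Members and lists were chosen with earlier results of these data known. All member probe sets are named, and so are list members past the threshold at 2-fold or more, a fixed set of regulators, and the genes most alike to GBP1 and APOL1. The design planned for log2 values, and the deposited ones were linear. Alternatives are those in the closing section. Figures were drawn with matplotlib 3.10.9.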

Additional observations from a re-analysis of the deposited data

How the results depend on the processing

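Of 129 recomputed counts (the 7 counts of calls under each alternative), 116 stayed within 1.5 times the reported value. Probe sets called over the whole array numbered 7891 (4294 lower in the arrays labelled CPEB3), 19786 with spike-in centring (1910 lower), 3868 at a threshold of 0.01, 4402 without probe sets whose probes match several transcripts, and 5143 to 6680 when an array was left out. Genes called numbered 4616 (2470 lower), 8804 with spike-in centring (1038 lower) and 2603 at a threshold of 0.01. GBP and APOL probe sets called lower numbered 3, 5 with an intensity trend, and 2 to 4 when an array was left out. Of all probe sets, 7.86% were lower as reported and 10% with an intensity trend. Of the GBP partners 6 were lower, 1 with spike-in centring, 2 at a threshold of 0.01 and 3 to 6 when an array was left out. Of the large GTPases 3 were lower, and 5 with an intensity trend, where 2979 of all genes were lower, against 2470 as reported. Of the apolipoproteins 2 were lower, and 1 without dim genes or without those multiply matching probe sets. For these settings, for the 0.01 threshold and for the fits without an array, the number of all genes lower is not given here. The list counts there cannot be set against all genes. With the replicate number as a block (replicate block), 7217 probe sets and 4262 genes were called, with 3 GBP and APOL probe sets and 5 GBP partners lower. GBP2 242907_at and PGGT1B then lost their calls (limma adjusted p = 0.0503 and 0.0532) and APOL3 passed. Deviations from the group means correlated at 0.0065, 0.0012 and 0.0926 between same-numbered arrays, and at -0.0904 to 0.0909 between differently numbered arrays. With 3 arrays per group these values cannot show whether same-numbered arrays were handled together. Among 302 recomputed member differences, 20 changed sign, all of probe sets that passed neither as reported nor in that setting. GBP3, all GBP1 probe sets and the other members below the median level were left out when dim features were removed. No detection calls were used, so the signal over background of dim probe sets is unknown.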

Other observations

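RBMXL1 and KYAT3 lie next to GBP3 on chromosome 1, on the side away from the other GBP genes in RefSeq's order. They were looked at after the values of the members had been seen. RBMXL1 averaged 5.16 in arrays labelled CPEB3, against 5.71 in arrays labelled NC, a log2 difference of -0.55 (limma adjusted p = 8.66e-04). KYAT3, an aminotransferase of the kynurenine pathway, averaged 7.02 in arrays labelled CPEB3, against 7.38 in arrays labelled NC, a log2 difference of -0.36 (limma adjusted p = 0.0108). In both genes all 3 arrays labelled CPEB3 lay below all 3 labelled NC. Of all probe sets, 14.9% were lower without overlap and 7.86% were lower past the threshold.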
